A study of Mus musculus with 6 samples.

Results

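Trp53, the mouse gene for the transcription factor p53, and 9 of its established target genes were followed in differentiating C2C12 cells. This immortalized mouse line consists of myoblasts, muscle precursors that stop dividing in low serum and then fuse into multinucleated myotubes. The genes were taken by name: Trp53, Mdm2, Bax, Bbc3, Ccng1, Sesn1, Sesn2, Btg2, Gadd45a and Trp53inp1. These are 10 of the 17558 genes in the deposited RNA sequencing table, and each of the 10 passed the filter on low counts. The study compared 3 stably transfected groups of 2 libraries each, harvested 48 h after the switch from 10% fetal bovine serum to 2% horse serum with insulin, transferrin and selenium. The control cells carried a scrambled short hairpin RNA (shScr), which the labels describe as non-targeting. Per the labels, the other groups carried hairpins against Pkm1 or Pkm2 (shPkm1 and shPkm2), the splice isoforms of the glycolytic enzyme pyruvate kinase M. Whether a line came from 1 clone or from a pool of cells, and whether the 2 libraries of a group came from separate cultures, was not given in the sources used here, so the p-values measure only the spread between these libraries.

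p53 is a transcription factor that is held at a low protein level by the ubiquitin ligase Mdm2 and accumulates when the kinases of the DNA damage response or other stresses block that interaction. It then binds response elements near genes for cell cycle arrest, cell death, DNA repair and metabolic control, Mdm2 among them, which closes a feedback loop. Because p53 is regulated mainly at the level of the protein, the amount of Trp53 mRNA is not a measure of p53 activity. In muscle precursors, several p53 targets, above all the Cdk inhibitor gene Cdkn1a, are also driven by the myogenic programme without p53.

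A p53 response element is built from a pair of copies of a 10-base half-site, and the sequences upstream of the member genes are shown because the 9 targets were grouped by their relation to this factor. The half-site was searched by exact match over all 10 bases in the RefSeq promoter windows of build GRCm38.p6, which run from 250 bases before to 50 bases after a gene's start. It is its own reverse complement, so a match counts for both strands. The windows of 6 of the 9 members with an entry held a match, and they are printed 5′ to 3′ on the gene's own strand with 25 bases on each side and the half-site in capitals.
Trp53: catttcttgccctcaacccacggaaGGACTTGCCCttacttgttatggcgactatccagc
Mdm2: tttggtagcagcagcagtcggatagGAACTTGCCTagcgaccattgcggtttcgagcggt
Bax: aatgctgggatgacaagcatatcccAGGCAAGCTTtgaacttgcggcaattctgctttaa
Ccng1: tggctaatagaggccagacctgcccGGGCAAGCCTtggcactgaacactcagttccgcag
Sesn1, downstream start: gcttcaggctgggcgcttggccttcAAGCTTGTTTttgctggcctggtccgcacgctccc
Gadd45a: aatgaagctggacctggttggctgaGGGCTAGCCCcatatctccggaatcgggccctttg
For reference, the window of Cdkn1a that holds 2 half-sites, at its upstream start, is added, although Cdkn1a is not among the 10 genes.
Cdkn1a: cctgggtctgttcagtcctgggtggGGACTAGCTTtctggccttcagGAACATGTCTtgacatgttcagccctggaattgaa

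The stretches lie at chr11:69580259-69580318 (plus strand) for Trp53, chr10:117710910-117710969 (minus) for Mdm2, chr7:45467065-45467124 (minus) for Bax, chr11:40755437-40755496 (minus) for Ccng1, chr10:41887241-41887300 (plus) for Sesn1, chr6:67037413-67037472 (minus) for Gadd45a and chr17:29090881-29090962 (plus) for Cdkn1a. The half-site ended 30 bases before the start in Gadd45a, 65 in Trp53, 163 in Sesn1, 175 in Ccng1, 176 in Mdm2 and 191 in Bax. Those of Cdkn1a ended 63 and 41 bases before its start. No exact match lay in the windows of Bbc3 (3 starts), Sesn2 and Btg2, nor at the upstream start of Sesn1, which says only that these letters are not in those windows. Of all RefSeq promoter windows of this length 8.36% held a half-site (2745 of 32851), and counted by gene it was 9.55%. Of the 25 genes with a window among 35 other p53 targets, 6 did (24%). A match is a description and not a site shown to be bound, and known response elements of Mdm2 and Gadd45a lie in introns, outside such windows.

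The libraries held between 18216896 and 19796036 estimated counts. The target was checked first: the Pkm1 transcript was at 546 and 589 TPM (a level scaled to transcript length and library) in the shScr libraries, 243 and 218 in those labelled shPkm1 and 254 and 254 in those labelled shPkm2, while the Pkm2 transcript was at 1073 and 1517, 1278 and 1379, and 2700 and 2630 TPM. The Pkm2 transcript was thus not lower in the libraries labelled shPkm2, which is why the group is named here by its label. The groups also differed widely in cell state. Summed over 10 genes each, muscle markers ran at 30105 and 23353 TPM in shScr, 11726 and 12660 with shPkm1 and 1120 and 1043 in the libraries labelled shPkm2, proliferation markers at 198 and 249, 492 and 471, and 1410 and 1336 TPM, and interferon markers at 2551 and 3039, 193 and 186, and 182 and 182 TPM. As single markers, log2 fold changes against shScr with shPkm1 and with the shPkm2 label were -0.94 and -5.35 for the myogenic factor Myog and 1.46 and 2.90 for the proliferation marker Mki67. All 10 muscle markers were detected, and the sums over 5 endothelial, 2 leukocyte and 4 adipocyte markers stayed at or below 0.41, 4.11 and 4.24 TPM. In the test described below, 9 of the 10 muscle markers were lower with shPkm1, beside 31.4% of all tested genes. With the shPkm2 label 9 were lower and 1 was higher, beside 34.2% and 33.9%. The sums of the muscle, proliferation and interferon markers moved with the groups in every comparison with shScr. The part of these markers in the results on p53 targets was not tested. In bulk samples, fewer cells of a type and less RNA per cell cannot be told apart.

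Changes of a gene between groups are given as log2 fold changes on depth-scaled counts (CPM) normalized with the trimmed mean of M values (TMM), from edgeR's quasi-likelihood test, and p-values were adjusted by the Benjamini-Hochberg method across the 12643 genes tested. A gene was called when the adjusted p was under 0.05. The 3 comparisons share libraries and are not independent of each other. Under TMM the median change of all tested genes lay within 0.01 of 0. Scaling by library totals alone moved this median up by 0.19 for shPkm1 against shScr, 0.32 for shPkm2 against shScr and 0.13 for shPkm2 against shPkm1, so small changes are relative to that choice. The deposited TPM values, used to compare levels between genes, put this median, over tested genes above 0, at 0.38 and 0.46 against shScr and at 0.07 in the direct comparison. On that scale Trp53, Ccng1, Sesn1 and Sesn2 lay above shScr in both shPkm1 libraries (0.20 to 0.36 on the log2 scale of group means), where their TMM values were below 0 and not called.

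With shPkm1, 5 of the 10 genes fell against shScr and none rose, while 63.1% of all tested genes were called, 31.8% higher and 31.4% lower. Those that fell were Gadd45a, Bbc3, Btg2, Bax and Mdm2. Between the libraries labelled shPkm2 and shScr, 6 of the 10 were called against 68.0% of all tested genes (33.9% higher and 34.2% lower): Gadd45a, Btg2, Bbc3 and Sesn2 fell, and Sesn1 and Trp53 rose. By library totals alone that split became 4 higher and 4 lower, with Mdm2 and Ccng1 added to the higher genes. In the direct comparison, 8 of the 10 differed between the libraries labelled shPkm2 and those of shPkm1, against 53% of all tested genes (25.7% higher and 27.3% lower). Trp53, Mdm2, Bax, Ccng1 and Sesn1 were higher with the shPkm2 label, and Gadd45a, Btg2 and Sesn2 were lower. The median log2 fold change over the 10 genes was -0.33, -0.10 and 0.18 in the 3 comparisons, beside -0.00, 0.01 and 0.00 over all tested genes. By library totals alone the 10-gene medians were -0.13, 0.22 and 0.31 beside 0.19, 0.33 and 0.14.

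**Figure D1:**
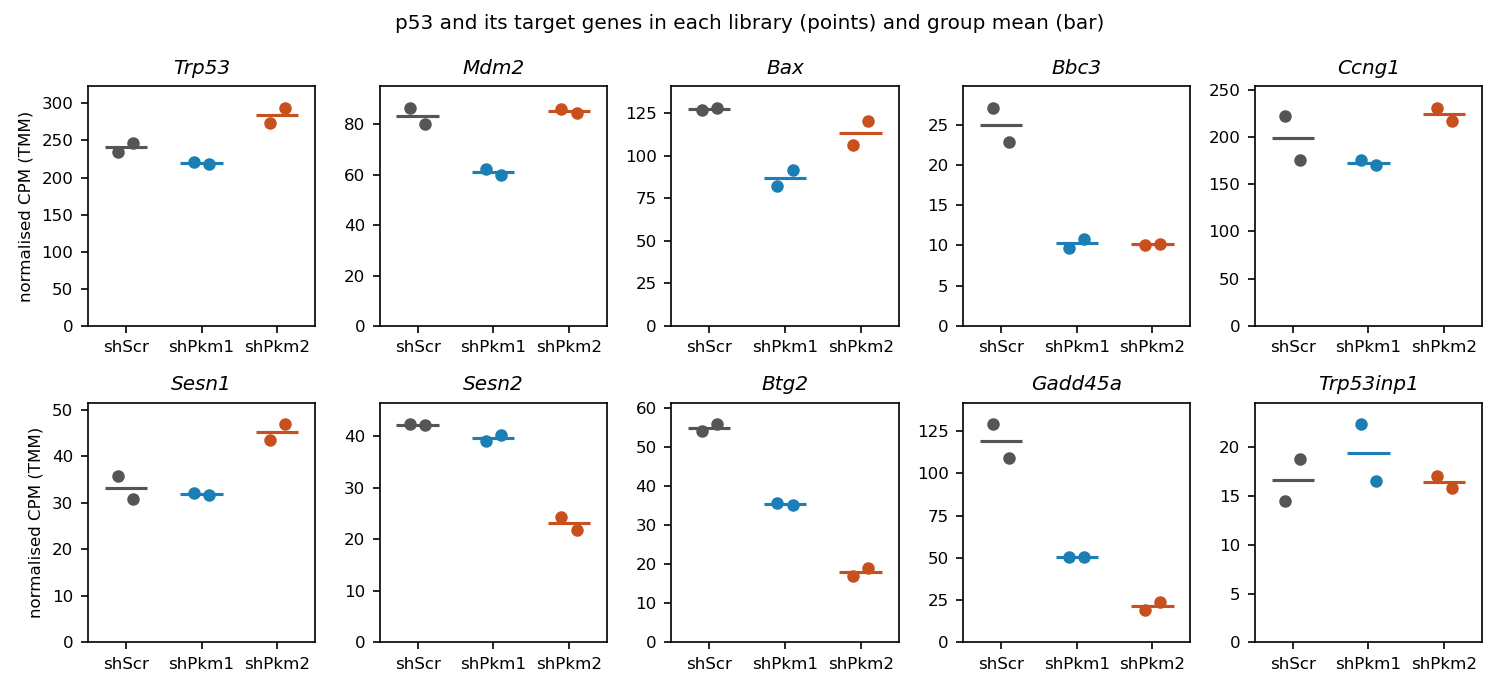
TMM-normalized CPM (vertical axis, from 0) of each of the 10 genes in every library (points) and as group mean (bars), for shScr, shPkm1 and shPkm2. Bbc3 lies near 10 in all 4 libraries labelled shPkm1 or shPkm2, while Gadd45a and Btg2 step down from shScr over shPkm1 to shPkm2.

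**Figure D2:**
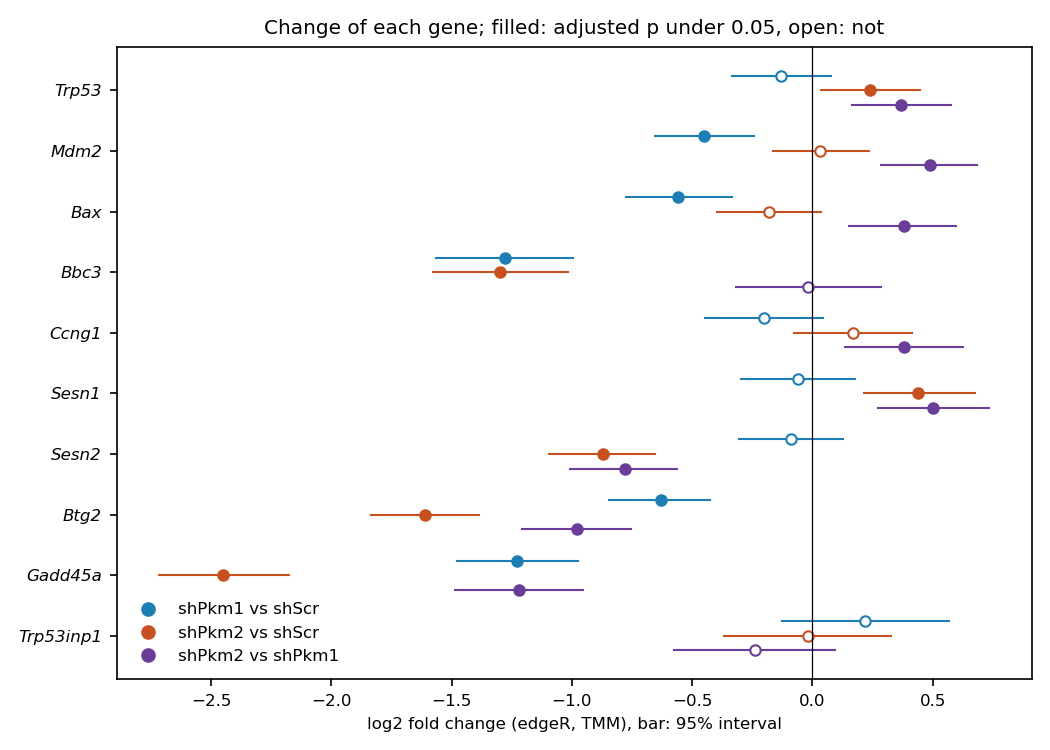
Log2 fold change (horizontal axis, edgeR with TMM) of each gene in the 3 comparisons, with the 95% interval as a bar and filled points for adjusted p under 0.05. The purple points of Trp53, Mdm2, Bax, Ccng1 and Sesn1 lie to the right of 0 and those of Sesn2, Btg2 and Gadd45a to the left.

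Trp53 (NCBI gene 22059, chr11:69580348-69591873 in GRCm38, the build that mm10 names) was abundant in every library. Its level was 235 and 246 CPM in shScr, 221 and 218 with shPkm1 and 274 and 294 in the libraries labelled shPkm2. The groups did not overlap, but the steps between them were small. Against shScr, the log2 fold change was -0.13 with shPkm1 (95% interval -0.34 to 0.08, edgeR adjusted p = 0.248). It was 0.24 with the shPkm2 label (SE 0.0967, edgeR adjusted p = 0.0433). This call was lost in 9 of 15 alternative analyses, among them without shScr replicate 1 (adjusted p = 0.0918), shPkm1 replicate 1 (0.0708), shPkm1 replicate 2 (0.0692), shPkm2 replicate 1 (0.0829) or shPkm2 replicate 2 (0.248) and with the replicate number as a block (0.0615), while its direction held in all 15. The direct difference between the libraries labelled shPkm2 and shPkm1 was 0.37 (SE 0.0967, edgeR adjusted p = 0.00576), and it missed the threshold without shPkm1 replicate 2 (0.0547) or shPkm2 replicate 2 (0.0837). On the TPM scale Trp53 stood at 176 and 209, 237 and 222, and 307 and 311, so that shPkm1 lay above shScr there and below it on the TMM scale.

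The 3 genes whose pattern over the 6 libraries was most like that of Trp53, by Pearson r of log2 CPM among the 10952 genes that averaged 50 or more counts, were Plpp2 (r = 0.9962), a lipid phosphatase gene, Cdk4 (0.9957), which encodes a kinase of the G1 phase, and Cep97 (0.9922), a centriole protein gene. These values describe 6 libraries that fall in 3 groups and share depth and scaling. Cdk4 stood at 370 and 402 CPM in shScr, 337 and 324 with shPkm1 and 534 and 623 in the libraries labelled shPkm2.

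Mdm2 (NCBI gene 17246, chr10:117688875-117710758), the ubiquitin ligase that marks p53 for degradation and is itself a p53 target, was lower in the shPkm1 libraries than in the other 4 on the TMM scale. Its level was 86.6 and 80.2 CPM in shScr, 62.2 and 59.8 with shPkm1 and 86.2 and 84.6 in the libraries labelled shPkm2. In CPM the shPkm2 values lay inside the range of shScr, and the shPkm1 values lay below both. The fall with shPkm1 was -0.45 on the log2 scale (SE 0.0956, edgeR adjusted p = 0.00112), and the direct difference was 0.49 (SE 0.095, edgeR adjusted p = 0.000771). Both calls held in all 15 alternatives. On the TPM scale, which is not among them, Mdm2 was at 36.6 and 37.8 in shScr and 37.4 and 34.1 with shPkm1, so that these groups overlapped and the log2 ratio of their means was -0.06, beside a median of 0.38 over tested genes. The libraries labelled shPkm2 stood at 54.7 and 50.5 TPM, above both shScr libraries (log2 ratio 0.50, beside a median of 0.46). Between the shPkm2 label and shScr the change was 0.03 (95% interval -0.17 to 0.24, edgeR adjusted p = 0.758), and library totals alone gave 0.36 and a call (adjusted p = 0.00518). Per length, the ratio of Mdm2 to Trp53 TPM, which does not depend on the scaling between libraries, was 0.208 and 0.181 in shScr, 0.158 and 0.154 with shPkm1, and 0.178 and 0.162 with the shPkm2 label. All 4 libraries labelled shPkm1 or shPkm2 thus lay below both shScr libraries in this ratio, with 0.178 close to 0.181.

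Mdm4, the relative of Mdm2 that binds p53 and blocks its transactivation, rose against shScr in the libraries labelled shPkm1 and in those labelled shPkm2. It was at 20.8 and 20.9 CPM in shScr, 65.8 and 45.7 with shPkm1 and 33.1 and 29.2 with the shPkm2 label. The log2 fold changes of Mdm4 were 1.42 (SE 0.154, edgeR adjusted p = 4.34e-06) and 0.58 (SE 0.155, edgeR adjusted p = 0.00482), and the direct difference was -0.84 (SE 0.147, edgeR adjusted p = 0.000326). Ppm1d, a phosphatase that acts against p53 and its kinases and is also a p53 target, was at 18.7 and 17.9, 15.4 and 16.4, and 20.4 and 19.2 CPM. Only its direct difference passed the test, at 0.31 (SE 0.115, edgeR adjusted p = 0.0347). For Ppm1d this call was lost on leaving out either of the shPkm1 libraries (adjusted p = 0.175 and 0.0803) or either of the shPkm2 libraries (0.215 and 0.0948) and by DESeq2 (0.127), and the change of 0.11 with the shPkm2 label became 0.44 and a call by library totals alone (0.00492).

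Bax and Bbc3, which promote apoptosis, both fell against shScr with shPkm1, and only Bbc3 was called lower with the shPkm2 label. The difference between these genes was not tested. Bax (NCBI gene 12028, chr7:45461695-45466903) encodes a protein that permeabilizes the outer mitochondrial membrane. It was at 127 and 128 CPM in shScr, 82 and 91.5 with shPkm1 and 106 and 120 in the libraries labelled shPkm2. In CPM the groups were ordered without overlap, with shPkm1 lowest. On the TPM scale Bax was at 201 and 232, 186 and 198, and 253 and 268. There the libraries labelled shPkm2 lay above shScr (log2 ratio of means 0.27, beside a median of 0.46 over tested genes). The fall with shPkm1 was -0.56 (SE 0.103, edgeR adjusted p = 0.000406) and held in all 15 alternatives. With the shPkm2 label the change was -0.18 (95% interval -0.40 to 0.04, edgeR adjusted p = 0.132) and it turned to 0.14 by library totals alone. The direct difference of 0.38 (SE 0.103, edgeR adjusted p = 0.00743) missed the threshold without shPkm1 replicate 1 (adjusted p = 0.111) or shPkm2 replicate 2 (0.121).

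Bbc3 (NCBI gene 170770, chr7:16308398-16318334) encodes Puma, a BH3-only protein that frees Bax and Bak from their inhibitors. It stood at 27.1 and 22.8 CPM in shScr, 9.69 and 10.8 with shPkm1 and 10.1 and 10.2 in the libraries labelled shPkm2. The 4 libraries labelled shPkm1 or shPkm2 lay well below the shScr libraries and overlapped each other. The mean of 24.9 ± 3 CPM (SD, n = 2) in shScr was 2.43-fold that of shPkm1 (log2 fold change -1.28, SE 0.134, edgeR adjusted p = 3.15e-06) and 2.46-fold that of the shPkm2 label (-1.30, SE 0.133, edgeR adjusted p = 1.64e-06). The direct difference was -0.02, with a 95% interval from -0.32 to 0.29. Both falls held in all 15 alternatives. Summed interferon marker TPM showed the same order of groups, high in shScr and low in both others, and its part was not tested.

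Among the relatives of Bax and Bbc3, Bcl2, which restrains Bax, was low in every library but rose against shScr with shPkm1 and with the shPkm2 label. Its counts were 35 and 51 in shScr, 96 and 121 with shPkm1 and 123 and 95 in the libraries labelled shPkm2, with log2 fold changes of 1.13 (SE 0.235, edgeR adjusted p = 0.000989) and 1.01 (SE 0.236, edgeR adjusted p = 0.00188). Over the 15 alternatives these changes of Bcl2 ranged from 0.50 to 1.34 and from 0.41 to 1.33. The ratio of Bax to Bcl2 TPM was 504 and 305 in shScr, 111 and 123 with shPkm1 and 155 and 231 in the libraries labelled shPkm2, and it rests on Bcl2 levels of 0.4 to 1.67 TPM. Of 12 tested Bcl2 family genes, 1 rose and 6 fell with shPkm1 (median -0.22), which is 58.3% called beside 63.1% of all tested genes. With the shPkm2 label 2 rose and 10 fell (median -0.49), 100% beside 68.0%, but by library totals alone 2 rose and 3 fell, which is 41.7%. Bid, a BH3-only protein cleaved by caspases, fell by 1.37 on the log2 scale with shPkm1 and by 0.53 with the shPkm2 label. Bcl2l13 fell by 0.97 and 0.91. With the shPkm2 label the BH3-only gene Bcl2l11 (Bim) rose by 0.85, while Bok, a relative of Bax, and the BH3-only gene Bmf had changes of -0.93 and -0.67, and all 3 passed the test. By library totals alone the calls of Bid (-0.20, adjusted p = 0.101) and Bmf (-0.35, adjusted p = 0.0575) with the shPkm2 label were lost.

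The growth arrest genes Gadd45a and Btg2 showed the largest changes of the 10 genes against shScr in the libraries labelled shPkm2. Gadd45a (NCBI gene 13197, chr6:67035096-67037407), whose product binds cell cycle regulators and activates stress kinases, was at 129 and 109 CPM in shScr, 50.8 and 50.8 with shPkm1 and 19.3 and 24.2 in the libraries labelled shPkm2. The groups were far apart and stepped down in that order. Its mean was 2.34-fold lower with shPkm1 (log2 fold change -1.23, SE 0.119, edgeR adjusted p = 1.60e-06) and 5.45-fold lower with the shPkm2 label (-2.45, SE 0.126, edgeR adjusted p = 1.93e-09). The direct difference was -1.22 (SE 0.126, edgeR adjusted p = 2.98e-06). A long non-coding RNA gene overlaps Gadd45a by 809 bases and the strand setting of the counting was not given in the sources used here, so reads from both could not be told apart.

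Btg2 (NCBI gene 12227, chr1:134074865-134079155) encodes an antiproliferative protein that recruits the mRNA deadenylation machinery. Its level was 54.2 and 55.9 CPM in shScr, 35.7 and 35.2 with shPkm1 and 17 and 19 in the libraries labelled shPkm2. The same downward order was seen as for Gadd45a, again without overlap. It fell by 0.63 with shPkm1 (SE 0.101, edgeR adjusted p = 0.000122) and by 1.61 with the shPkm2 label (SE 0.106, edgeR adjusted p = 2.01e-08) on the log2 scale. The direct difference was -0.98 (SE 0.106, edgeR adjusted p = 4.92e-06). All calls of Gadd45a and Btg2 held in the 15 alternatives. Summed muscle markers fell and summed proliferation markers rose over the groups in the same order, and their part in these falls was not tested.

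Cdkn1a, the gene for the Cdk inhibitor p21 and the best known arrest target of p53, had the same order of groups. Its level was 4080 and 3679 CPM in shScr, 2149 and 2047 with shPkm1 and 263 and 290 in the libraries labelled shPkm2. On the log2 scale it fell by 0.89 with shPkm1 (SE 0.127, edgeR adjusted p = 4.82e-05) and fell by 3.81 with the shPkm2 label (SE 0.141, edgeR adjusted p = 8.40e-11). Of the Gadd45 relatives, Gadd45b fell in both comparisons (-0.47 and -1.97), while Gadd45g, also a stress-response gene, was at 0.18 with shPkm1 (edgeR adjusted p = 0.163, but 0.0161 by library totals alone and 0.0129 without shScr replicate 2) and fell by 2.05 with the shPkm2 label.

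Ccng1 (NCBI gene 12450, chr11:40748552-40755309) encodes cyclin G1, which recruits a phosphatase to Mdm2. It was at 222 and 176 CPM in shScr, 176 and 170 with shPkm1 and 231 and 217 in the libraries labelled shPkm2. The shScr libraries differed from each other by about as much as the other groups did from one another, and they overlapped both. Against shScr the log2 fold changes were -0.20 with shPkm1 (95% interval -0.45 to 0.05, edgeR adjusted p = 0.145) and 0.17 with the shPkm2 label (-0.08 to 0.42, edgeR adjusted p = 0.196). Without shScr replicate 1 these 2 values for Ccng1 became -0.02 and 0.35 (adjusted p = 0.00331 for the second). Without shScr replicate 2 they became -0.36 and 0.02 (adjusted p = 0.00253 for the first). The direct difference of 0.38 (SE 0.116, edgeR adjusted p = 0.0148) missed the threshold without shPkm1 replicate 1 (0.0765), shPkm1 replicate 2 (0.108) or shPkm2 replicate 1 (0.114). Its relative Ccng2 was at 0.11 and 0.44 against shScr, and the second value passed the test (edgeR adjusted p = 0.00236), while the first did so, at 0.30, by library totals alone (adjusted p = 0.0385).

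The 2 sestrin genes, whose products bind the Gator2 complex and restrain mTORC1 signalling, went opposite ways in the libraries labelled shPkm2. Sesn1 (NCBI gene 140742, chr10:41810574-41908436) was at 35.8 and 30.8 CPM in shScr, 32.1 and 31.7 with shPkm1 and 43.5 and 46.9 in the libraries labelled shPkm2. The shPkm1 values lay inside the shScr range and the shPkm2 values lay above all others. Its rise with the shPkm2 label was 0.44 against shScr (SE 0.108, edgeR adjusted p = 0.00264) and 0.50 against shPkm1 (SE 0.108, edgeR adjusted p = 0.00147).

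Sesn2 (NCBI gene 230784, chr4:132492804-132510456) stood at 42.3 and 42.2 CPM in shScr, 39.1 and 40.3 with shPkm1 and 24.4 and 21.8 in the libraries labelled shPkm2. The last pair lay apart from the other 4 libraries. It fell by 0.87 against shScr (SE 0.105, edgeR adjusted p = 7.33e-06) and by 0.78 against shPkm1 (SE 0.104, edgeR adjusted p = 3.18e-05) on the log2 scale. With shPkm1 the change against shScr was -0.06 for Sesn1 (95% interval -0.30 to 0.18) and -0.09 for Sesn2 (-0.31 to 0.13), and neither passed the test. The sestrin calls held in all 15 alternatives. Sesn3, the remaining family member, rose against shScr by 1.11 with shPkm1 (edgeR adjusted p = 7.80e-05) and by 0.60 with the shPkm2 label (edgeR adjusted p = 0.00683, or 0.0653 without shPkm2 replicate 2), from 5.7 and 6.67 CPM in shScr.

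Trp53inp1 (NCBI gene 60599, chr4:11156441-11174379) encodes a nuclear stress protein that promotes p53 phosphorylation and also acts in autophagy. It was the lowest member per length and did not pass the test in any comparison. Its level was 14.5 and 18.8 CPM in shScr, 22.3 and 16.5 with shPkm1 and 17 and 15.8 in the libraries labelled shPkm2, and the groups overlapped in CPM. On the TPM scale it was at 3.47 and 5.09, 7.67 and 5.38, and 6.1 and 5.39. There shPkm1 and shPkm2 lay above shScr (log2 ratios of means 0.61 and 0.42, beside medians of 0.38 and 0.46 over tested genes). The log2 fold changes on the TMM scale were 0.22 (95% interval -0.13 to 0.57) and -0.02 (-0.37 to 0.33) against shScr and -0.24 (-0.58 to 0.10) in the direct comparison. The first of these for Trp53inp1 became 0.42 (adjusted p = 0.0158) without shScr replicate 2, 0.04 without shScr replicate 1 and 0.00 without shPkm1 replicate 1. Its relative Trp53inp2, an autophagy factor, fell by 0.79 and 2.18 against shScr and passed the test in both comparisons.

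**Figure D3:**
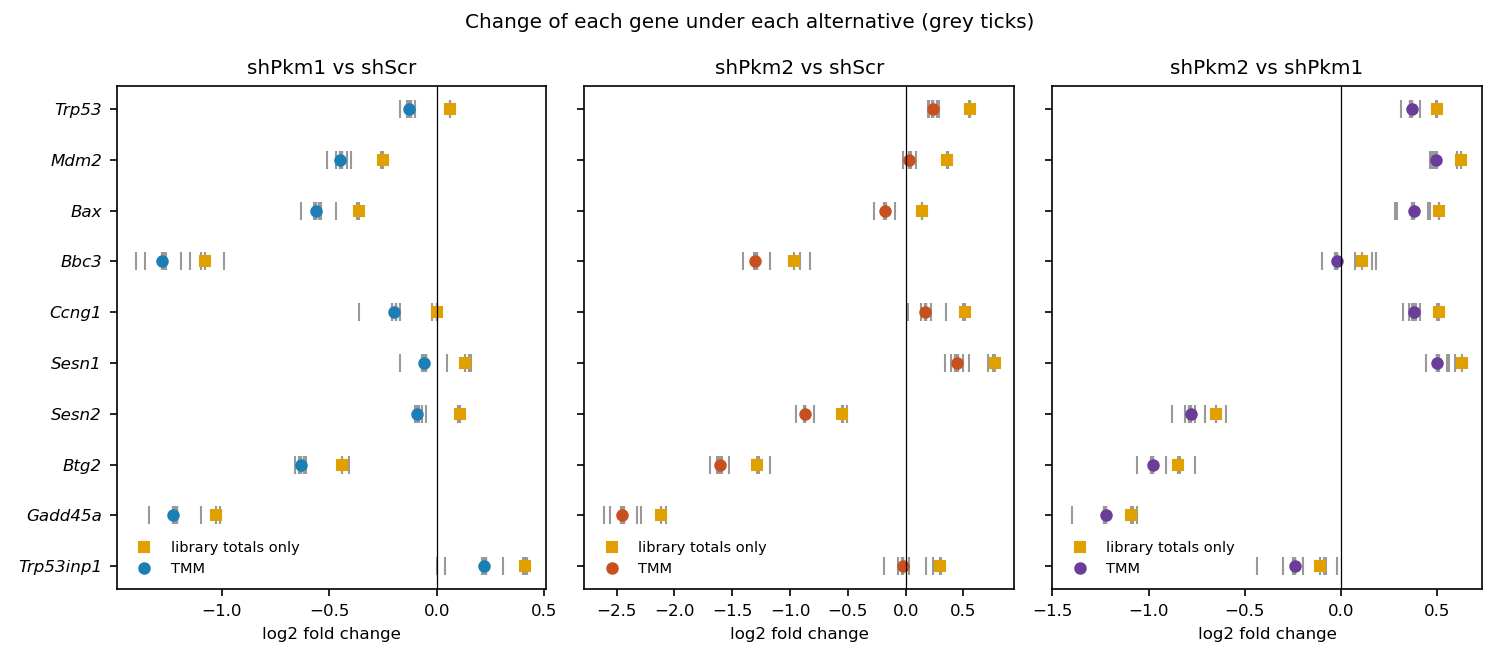
Log2 fold change (horizontal axis) of each gene in the 3 comparisons under the 15 alternatives (grey ticks), with the TMM value as a circle and the value by library totals alone as a square. Totals alone shift every gene to the right, and the signs of Trp53, Sesn1 and Sesn2 with shPkm1, of Bax and Trp53inp1 with the shPkm2 label and of Bbc3 in the direct comparison turn with it. None of these was called.

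Levels per length put Bax and Trp53 first in every group. In shScr the mean TPM (n = 2) was 217 ± 21.4 (SD) for Bax, 192 ± 23.2 for Trp53, 140 ± 3.87 for Gadd45a, 79.3 ± 6.6 for Ccng1, 37.2 ± 0.799 for Mdm2, 25 ± 2.68 for Btg2, 22.3 ± 1.9 for Sesn2, 19.1 ± 0.247 for Bbc3, 16.2 ± 0.297 for Sesn1 and 4.28 ± 1.15 for Trp53inp1. Bax and Trp53, and Btg2 and Sesn2, overlapped between libraries and the other neighbours did not. With shPkm1 Trp53 (229 ± 10.6) lay above Bax (192 ± 8.49), Gadd45a had dropped behind Ccng1, and Btg2 and Sesn1 overlapped. In the libraries labelled shPkm2 the order was Trp53 (309 ± 3.11), Bax (261 ± 10.7), Ccng1 (124 ± 10.5), Mdm2 (52.6 ± 2.98), Gadd45a (35.3 ± 4.14), Sesn1 (30.1 ± 0.559), Sesn2 (16.7 ± 1.97), Btg2 (11.2 ± 0.438), Bbc3 (11 ± 0.544) and Trp53inp1 (5.74 ± 0.502), where only Btg2 and Bbc3 overlapped. Gadd45a moved from the third to the fifth place and Sesn1 from the ninth to the sixth between shScr and the shPkm2 label.

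The table lists 26 transcripts of these genes, and 19 passed the filter in a separate edgeR fit of 33433 transcripts. How reads shared by transcripts were split is an estimate of the counting program. Called member transcripts numbered 4 of 19 with shPkm1 (all lower), 6 with the shPkm2 label (2 higher and 4 lower) and 6 in the direct comparison (3 and 3), beside 10.8%, 17.2% and 7.91% of all transcripts tested. With the replicate number as a block they numbered 1, 4 and 1, and by library totals alone 1, 10 and 8.

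Trp53 had a pair of curated transcripts with the same start, and the minor one had the larger fold change in both comparisons with the shPkm2 label. NM_001127233.1 was at 18.7 and 24.3 TPM in shScr, 28.2 and 24.8 with shPkm1 and 49.2 and 52.5 in the libraries labelled shPkm2. Its share of Trp53 TPM was 10.6% and 11.6%, 11.9% and 11.2%, and 16% and 16.9%, so that only the last pair stood apart. It rose with the shPkm2 label by 0.83 against shScr (SE 0.128, edgeR adjusted p = 0.017) and by 0.88 against shPkm1 (SE 0.128, edgeR adjusted p = 0.0259, or 0.0645 with the replicate block). The major transcript, NM_011640.3, was at 157 and 184, 207 and 195, and 256 and 256 TPM, and its changes of 0.17 (edgeR adjusted p = 0.197) and 0.28 (edgeR adjusted p = 0.0934) with the shPkm2 label did not pass. By library totals alone both did, at 0.46 (adjusted p = 0.0211) and 0.41 (adjusted p = 0.0483). The difference between the 2 transcripts was not tested.

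Sesn1 is read from 2 starts 76865 bases apart, at positions 41810574 and 41887439 of chromosome 10, and the half-site printed above lies before the downstream one. The transcript from the downstream start, NM_001013370.2, was at 8.97 and 8.96 TPM in shScr, 13.5 and 13.8 with shPkm1 and 15.5 and 16.5 in the libraries labelled shPkm2. The transcript from the upstream start, NM_001162908.1, was at 7.44 and 7.03, 7.91 and 6.46, and 14.2 and 14 TPM. The downstream transcript held 54.7% and 56% of Sesn1 TPM in shScr, 63.1% and 68.1% with shPkm1 and 52.2% and 54.1% in the libraries labelled shPkm2, so its share was highest in both shPkm1 libraries. In the fit, only the direct difference of the upstream transcript passed the test, at 0.91 (SE 0.157, edgeR adjusted p = 0.0387), and it missed the threshold with the replicate block (0.0893). For the downstream transcript the direct difference was 0.16 (95% interval -0.20 to 0.52). By library totals alone both transcripts were also called against shScr with the shPkm2 label, the downstream one at 0.71 (adjusted p = 0.0238) and the upstream one at 0.83 (0.0268).

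**Figure D4:**
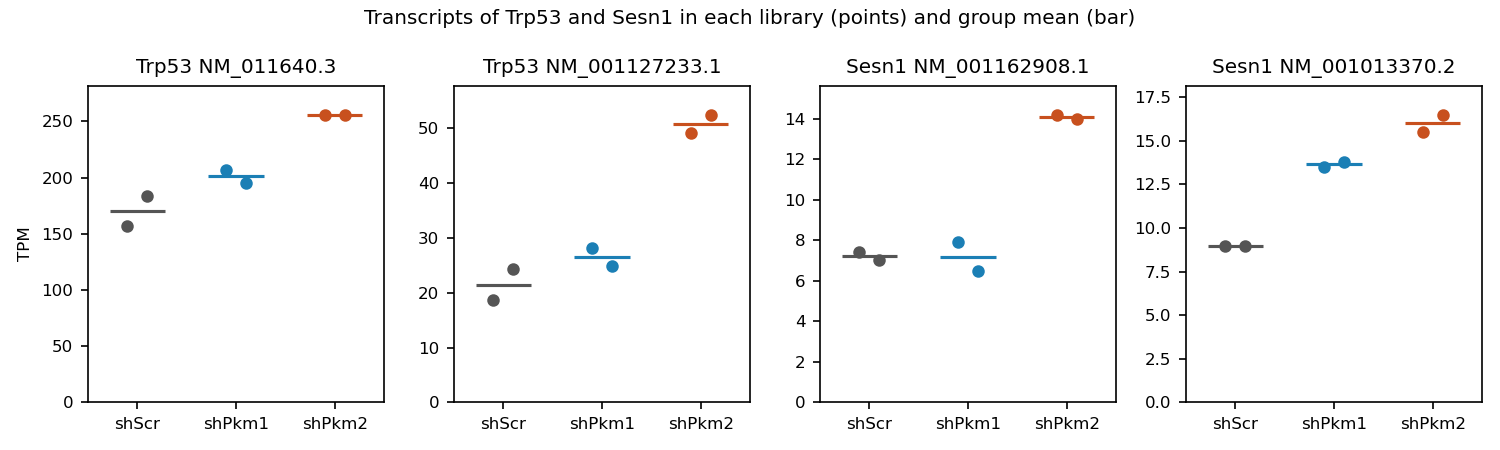
TPM (vertical axis, from 0) of the curated Trp53 and Sesn1 transcripts in every library (points) and as group mean (bars). Trp53 NM_001127233.1 lies at 49.2 and 52.5 TPM and Sesn1 NM_001162908.1 at 14.2 and 14 in the libraries labelled shPkm2, above the other 4 libraries.

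Mdm2 came mainly from NM_010786.4, with 83.1% to 86.6% of its TPM. That transcript fell by 0.42 with shPkm1 (SE 0.0781, edgeR adjusted p = 0.0391), which missed the threshold with the replicate block (0.0823) and by library totals alone (-0.26, adjusted p = 0.13). Its direct difference of 0.49 (edgeR adjusted p = 0.032) missed it with the replicate block (0.074). Bbc3 was split over 8 transcripts, of which NM_133234.2 took between 42.9% and 67.9% of its TPM, so the gene sum is the firmer value. The predicted Bbc3 transcript XM_006539582.2 went against the gene. It had 0 counts in both shScr libraries, 30 and 16 with shPkm1 and 81 and 33 in the libraries labelled shPkm2, and is 1 of the 2 transcripts called higher there (edgeR adjusted p = 0.0319, or 0.0817 with the replicate block). Trp53inp1 was split between 2 transcripts whose shares also differed widely between libraries of a group, with NM_021897.3 at 37.5% and 65.6% in shScr.

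The 35 other p53 targets moved in both directions. With shPkm1 11 rose and 11 fell (median 0.06), with the shPkm2 label 10 rose and 14 fell (median -0.03), and in the direct comparison 7 were higher and 15 lower (median -0.16). That is 62.9%, 68.6% and 62.9% called, against 63.1%, 68.0% and 53% of all tested genes. By library totals alone the splits were 15 higher and 10 lower, 16 and 12, and 9 and 13. The largest falls with shPkm1 were those of Rps27l, a ribosomal protein paralogue (-1.05), and Aen, an apoptotic nuclease (-0.99). Among the rises was that of Igfbp3 (2.59), which encodes a binding protein for insulin-like growth factors. With the shPkm2 label Cdkn1a and Pmaip1 fell most, and Apaf1, the apoptosome scaffold, rose by 1.27. Pmaip1, the gene for the BH3-only protein Noxa, had counts of 155 and 136 in shScr, 126 and 94 with shPkm1 and 12 and 20 in the libraries labelled shPkm2, a log2 fold change of -3.51 (SE 0.295, edgeR adjusted p = 2.39e-07). Over the alternatives this fall of Pmaip1 ranged from -3.93 to -1.59, the last by limma on log2(FPKM + 1), and it was called in all 15. Igfbp3 went opposite ways, at 10.1 and 19.6 CPM in shScr, 91 and 89.1 with shPkm1 and 7.25 and 5.58 in the libraries labelled shPkm2, and its direct difference was -3.81 (SE 0.224, edgeR adjusted p = 1.37e-08). In the direct comparison Apaf1 (1.21) and Pidd1, a scaffold for caspase 2 (1.02), were the highest with the shPkm2 label.

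Of 23 regulators of p53 in the table, 9 rose and 7 fell with shPkm1, and 10 rose and 5 fell with the shPkm2 label (14 and 4 by library totals alone). Directly, 9 were higher and 4 lower with the shPkm2 label (14 and 2 by library totals alone). That is 69.6%, 65.2% and 56.5% called in the 3 comparisons, near the 63.1%, 68.0% and 53% of all tested genes. The checkpoint kinase genes Chek1 and Atr rose in both groups, Chek1 by 0.99 and 2.57 and Atr by 0.68 and 1.24. Over the 15 alternatives the changes of Chek1 ranged from 0.59 to 1.32 and from 1.81 to 2.90. Aurka, a mitotic kinase that phosphorylates p53, was at 23.5 and 29.3 CPM in shScr, 32.1 and 33.1 with shPkm1 and 107 and 109 in the libraries labelled shPkm2 (log2 fold change 2.03 for the last group, SE 0.115, edgeR adjusted p = 4.62e-09). Chek1 and Aurka are also cell cycle genes, and summed proliferation markers moved in the same order, whose part was not tested. Dyrk2, a kinase of p53 (-1.24 and -1.57), and Daxx, a partner of Mdm2 (-1.11 and -1.21), fell in both groups. Cop1, a ubiquitin ligase for p53, rose with shPkm1 (0.55), and Ppp1r13l, the inhibitory member of the Aspp family, fell with the shPkm2 label (-1.14).

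Of 12 paralogues of the members, 11 were tested. With shPkm1 2 rose and 3 fell (6 and 3 by library totals alone), with the shPkm2 label 6 rose and 5 fell, and directly 2 were higher and 7 lower (4 and 6 by library totals alone). That is 45.5%, 100% and 81.8% called, beside 63.1%, 68.0% and 53% of all tested genes. Trp63, a p53 relative best known from epithelia, had counts of 131 and 37 in shScr, 122 and 122 with shPkm1 and 6 and 0 in the libraries labelled shPkm2. Its fall with the shPkm2 label passed the test against both other groups (edgeR adjusted p = 6.61e-05 and 4.77e-05), but the fitted size depends on the prior count because 1 library is at 0, where 3 counts are the limit that a count of 0 allows. Trp73 was under the filter, with at most 2 counts in a library. The highest direct differences among paralogues called higher with the shPkm2 label were those of Tob2 (0.44) and Ccng2 (0.33). The call of Ccng2 was lost on leaving out either of the shPkm1 libraries (adjusted p = 0.0526 and 0.113) or either of the shPkm2 libraries (0.0921 and 0.104) and by DESeq2 (0.0624).

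**Figure D5:**
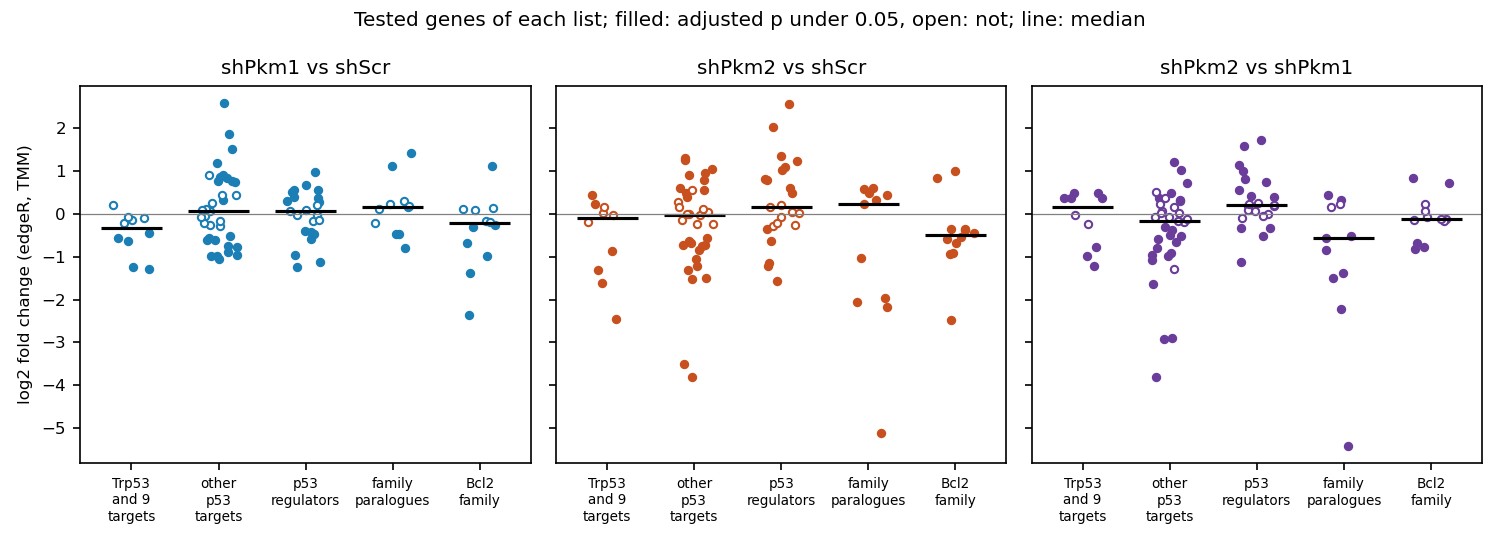
Log2 fold change (vertical axis, edgeR with TMM) of each tested gene in the 10-gene group and in the 4 other lists, for the 3 comparisons. Filled points passed the test, open points did not, and lines are medians, which for the 10 genes are -0.33, -0.10 and 0.18.

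Set beside the printed promoters, the 5 members higher with the shPkm2 label than with shPkm1 (Trp53, Mdm2, Bax, Ccng1 and Sesn1) each had a half-site in a window. For Sesn1 it lies at the downstream start, whose transcript was not called in that comparison, and the transcript that was called comes from the upstream start, where no match lay. Of the 3 that were lower, Gadd45a had one and Btg2 and Sesn2 did not. Bbc3, with no match in its windows, was not called there (-0.02). Of those that fell with shPkm1 against shScr, Mdm2, Bax and Gadd45a had a half-site and Bbc3 and Btg2 did not. With the shPkm2 label against shScr, Sesn1 and Trp53, which rose, and Gadd45a, which fell, had one. Bbc3, Btg2 and Sesn2, which also fell, had none. This is a description of 9 genes with a window, and nothing about binding follows from it.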

How the data were processed

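Rows of the deposited table are RefSeq transcripts (57920). Per the file headers it holds an estimated count, a TPM and an FPKM value for each of 6 libraries. The deposited TPM and FPKM values were made by the authors by scaling for transcript length and depth. HISAT, StringTie, Bowtie, RSEM, DESeq2 and build mm10 are named, without roles, in the submitters' processing notes. Strandedness was not given in the sources used here. Deposited columns of group means were not used.

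Estimated counts were summed per NCBI gene and rounded. Genes were filtered with filterByExpr (minimum count 10, minimum total 15), leaving 12643, and tested with edgeR 4.0.16 (R 4.3.3, TMM, 1 coefficient per group over all 6 libraries, quasi-likelihood F-test, two-sided, Benjamini-Hochberg, 0.05). With 2 libraries a group, the smallest exact permutation p is 0.333, and all tests therefore come from the fit across genes. In simulated counts for shPkm1 against shScr, 91% of 100 genes with a log2 change of 1 and 50% of 100 with 0.5 were called, as were 11 of 11910 unchanged genes. Far fewer genes were changed there than were called in the data. Symbols matched 17445 of 17558 genes, and the other 113 held at most 0.148% of counts. Promoters came from RefSeq (GRCm38.p6).

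The members, lists and rules were chosen with earlier results of these data known. Beside the members, Cdkn1a, Mdm4, Trp63, Trp73 and Ppm1d were always named, and from each list up to 2 called rises and 2 called falls per comparison with a mean of at least 50 counts. Some genes that this rule names are not reported here. Bcl2 relatives, paralogues, regulators and other targets formed the lists. Alternatives were DESeq2 size factors, library totals, other filters, DESeq2 1.42.0, only the groups compared, a replicate block, leaving out each library, and limma 3.58.1 on log2(FPKM + 1) and log2(FPKM + 0.1).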

Additional observations from a re-analysis of the deposited data

How the results depend on the processing

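Over the 10 genes, 3 comparisons and 15 alternatives, 400 of 450 values kept their direction and call, 16 lost a call, 9 gained one and 25 changed sign. None of the 25 had been called. The counts of called members ranged from 5 to 7 (shPkm1 against shScr), 5 to 8 (shPkm2 against shScr) and 6 to 8 (direct). The labels name no shared culture or day for a replicate number. Deviations of same-numbered libraries correlated at -0.0256, 0.0418 and 0.0527 over genes, which cannot show whether such libraries shared one. With the replicate number as a block, 5, 5 and 8 members were called and, of other p53 targets, 22, 24 and 22. Called member transcripts numbered 1, 4 and 1 with the replicate block against 4, 6 and 6 without it, and 1, 10 and 8 by library totals alone. The cause was not tested.

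Signs changed as follows, given as log2 fold changes by library totals alone, limma on log2(FPKM + 1) and limma on log2(FPKM + 0.1). With shPkm1 they were 0.06, 0.06 and 0.06 for Trp53, 0.13, 0.15 and 0.16 for Sesn1, 0.11, 0.10 and 0.10 for Sesn2, 0.17, 0.16 and 0.16 for Ppp1r13l, 0.02 in all 3 for Bok, and 0.00 by both limma fits for Ccng1. With the shPkm2 label they were 0.14 in all 3 for Bax, and 0.30, 0.24 and 0.31 for Trp53inp1. Directly they were 0.11, 0.16 and 0.18 for Bbc3, 0.03 in all 3 for Daxx, and 0.01 by totals for Bcl2. These alternatives carry no composition factor.

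Leaving out 1 library in turn changed signs within these ranges: with shPkm1 -0.17 to 0.05 for Sesn1, -0.39 to 1.60 for Trp63, -0.02 to 0.15 for Apaf1, -0.19 to 0.15 for Ppp1r13l and -0.04 to 0.35 for Bmf. With the shPkm2 label they were -0.02 to 0.09 for Mdm2, -0.19 to 0.18 for Trp53inp1 and -0.00 to 0.10 for Cop1. Directly they were -0.10 to 0.07 for Bbc3 and -0.32 to 0.04 for Bcl2. A group left with 1 library was assumed to vary like the others.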
